A study of Mus musculus with 22 samples.

Results

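Collagen genes were followed across 3 postnatal ages in nuclei sorted from the lumbar dorsal horn of the mouse spinal cord. They were all coding genes of the deposited table whose symbol reads Col, a number, a and a number, which gave 44 genes of 21363. The animals carry pDyn-Sun1-GFP, a GFP-tagged nuclear envelope protein under control of the prodynorphin promoter, so both sorted populations came from animals with the transgene. GFP+ nuclei are termed pDyn-lineage and GFP- nuclei are the remaining, unidentified nuclei. Each sample held 5000 nuclei of 1 animal, and each of the 11 animals gave a sample of both populations. At postnatal day 7 (P7) there were 4 animals, at P21 there were 3 and at P80 there were 4. Animals of both sexes were used, per the labels. The labels do not say whether GFP marks present or past use of the promoter. Nuclear RNA was sequenced to between 4244987 and 10849169 reads per library (median 5359703). Values are normalized counts, that is, reads divided by 1 size factor per library, and 1 read was worth between 0.547 and 1.31. Libraries are given by the codes of the deposited table, from ES1 to ES24, in code order within a group. All 44 genes were tested, since each had 3 or more libraries at 10 or above. Their means over the 22 libraries ran from 10.7 (Col8a2) to 1712 (Col11a1), and no gene had a mean under 10. In 14 of them at least 1 library was under 10.

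Collagens are extracellular proteins of 3 chains wound into a triple helix, which requires a glycine at regular steps along each chain. Fibrillar collagens form the fibres of skin, bone, tendon and meninges, and FACIT collagens sit on the surface of those fibres. Type IV collagens form the sheets of basement membranes, which in the spinal cord surround vessels and line the surface under the meninges. Type VI collagens form beaded filaments next to basement membranes, multiplexins carry a helix with many interruptions, and transmembrane collagens span the plasma membrane. In nervous tissue, fibroblasts of the meninges and of vessels and the cells of vessel walls are known as the main sources of types I, III and IV, while some other collagen genes are known to be transcribed in neurons.

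The coding sequence of each of the 44 genes held a run of at least 10 GGN codons, the codons of glycine, spaced 1 in every 3 codons. In the reference annotation (GENCODE M21, build GRCm38) 98 of 21738 coding genes had such a run (0.451%), of which 54 are not collagen genes by the symbol rule. A link between this repeat and the differences below was not tested. To show the repeat, an exon of the helix is printed for 4 genes that were higher in GFP+ nuclei and 3 that were lower, with the glycine codons in capitals.
Col6a6: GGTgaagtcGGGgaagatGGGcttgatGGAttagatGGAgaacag
Col6a1: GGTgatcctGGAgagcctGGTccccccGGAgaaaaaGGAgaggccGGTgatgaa
Col24a1: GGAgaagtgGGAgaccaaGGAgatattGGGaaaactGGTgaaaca
Col19a1: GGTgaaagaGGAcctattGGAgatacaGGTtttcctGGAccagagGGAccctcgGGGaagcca
Col6a3: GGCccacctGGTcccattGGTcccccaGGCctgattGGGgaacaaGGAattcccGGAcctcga
Col1a1: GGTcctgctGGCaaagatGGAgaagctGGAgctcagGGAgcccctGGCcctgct
Col4a3: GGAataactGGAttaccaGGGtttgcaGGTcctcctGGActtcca
In GRCm38 these exons lie at chr9:105755651-105755695 (- strand, exon 16 of 37) for Col6a6, chr10:76717262-76717315 (- strand, exon 17 of 35) for Col6a1, chr3:145408623-145408667 (+ strand, exon 24 of 60) for Col24a1, chr1:24289667-24289729 (- strand, exon 44 of 51) for Col19a1, chr1:90788215-90788277 (- strand, exon 26 of 44) for Col6a3, chr11:94944598-94944651 (+ strand, exon 27 of 51) for Col1a1 and chr1:82649756-82649800 (+ strand, exon 5 of 52) for Col4a3. For the deposited counts the sources used here name no build. The longest run held 337 to 344 glycine codons in most fibrillar genes, but 216 in Col24a1 and 217 in Col27a1. It held 37 to 87 in type VI genes and 39 to 66 in type IV genes, and the shortest, in Col26a1, held 23.

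The GFP- libraries were not alike. ES16, a GFP- library of P21, held the highest GFP- value of 20 of the 44 collagen genes (45.5%), where it did so for 28.8% of all tested genes. In 17 collagen genes the ES16 value was at least 2 times that of the next GFP- library, a margin that 10.8% of all tested genes had. The summed level of 10 endothelial markers was 9112 in ES16 and 223 to 1022 in the other GFP- libraries. For 10 meningeal fibroblast markers it was 1625 against 163 to 598, and for 10 mural cell markers 2302 against 410.1 to 1035. For 8 microglia markers it was 2872 against 441 to 2176, and for 4 ependymal markers 559 against 10.2 to 62.4. ES16 was also the library with the most reads, 10849169. The summed level of 12 pan-neuronal markers was lowest in ES16 (7752), ES8 (7923) and ES12 (8387), and the GFP- library with most had 16049.6. ES12 and ES8 had the highest oligodendrocyte marker sums among GFP- libraries, 116317 and 104781. In GFP+ libraries the endothelial sum was 149 to 278, the fibroblast sum 95.2 to 181, the mural sum 276 to 382 and the pan-neuronal sum 17205 to 20690.1. The microglia sum was 88.9 to 219 there and the ependymal sum 17 to 171. The summed level of 7 inhibitory neuron markers was 3797 to 4285 in GFP+ and 487 to 2199 in GFP- libraries. In bulk samples like these, fewer cells of a type and less RNA per cell cannot be told apart. The averaged comparison was therefore also made without ES16, and without ES8, ES12 and ES16, alternatives chosen after seeing the data. The latter leaves 1 GFP- library at P21. A difference averaged over P7 and P80 only was also computed. Its fit kept all 22 libraries, so those of P21 still entered the spread.

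Averaged over the 3 ages, 10 collagen genes were higher and 17 lower in GFP+ than in GFP- nuclei. Calls rest on a Benjamini-Hochberg adjusted p under 0.05 over all 18614 tested genes in a limma fit of log2(value + 1), two-sided, and adjusted p-values are from that fit unless another is named. Of all tested genes 48.2% were called, 22.6% higher and 25.5% lower. The 10 that were higher were Col6a6, Col6a1, Col24a1, Col19a1, Col15a1, Col26a1, Col14a1, Col5a2, Col4a2 and Col18a1. The 17 that were lower were Col1a2, Col1a1, Col3a1, Col6a3, Col13a1, Col4a3, Col27a1, Col11a2, Col4a4, Col4a5, Col16a1, Col4a6, Col9a3, Col20a1, Col9a1, Col9a2 and Col25a1. The median difference of the collagen genes was -0.15 on the log2 scale, and that of all tested genes -0.02. Without ES16 alone 13 were higher and 14 lower, and the shares of all tested genes under that fit are not given here. A further fit left out ES8, ES12 and ES16, which leaves 1 GFP- library at P21. Without the 3 libraries Col6a2, Col4a1, Col5a3, Col5a1 and Col28a1 gained a call and Col4a3 and Col4a6 lost theirs. Without ES16 alone Col6a2, Col4a1 and Col8a1 gained a call and Col3a1, Col4a3 and Col4a4 lost theirs. By class, 2 of 6 type VI genes were higher and 1 lower, 2 of 11 fibrillar genes were higher and 5 lower, and 1 of 6 type IV genes was higher and 4 lower. Of the FACIT genes 2 of 9 were higher and 5 lower, and both multiplexins were higher. Of 4 transmembrane collagens 2 were lower, and of the 6 remaining genes 1 was higher. In 2 genes, Col6a6 and Col24a1, every GFP+ library lay above every GFP- library, a pattern of 3.6% of all tested genes. In no collagen gene did every GFP+ library lie below every GFP- library, which 4.81% of all tested genes did.

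**Figure D1:**
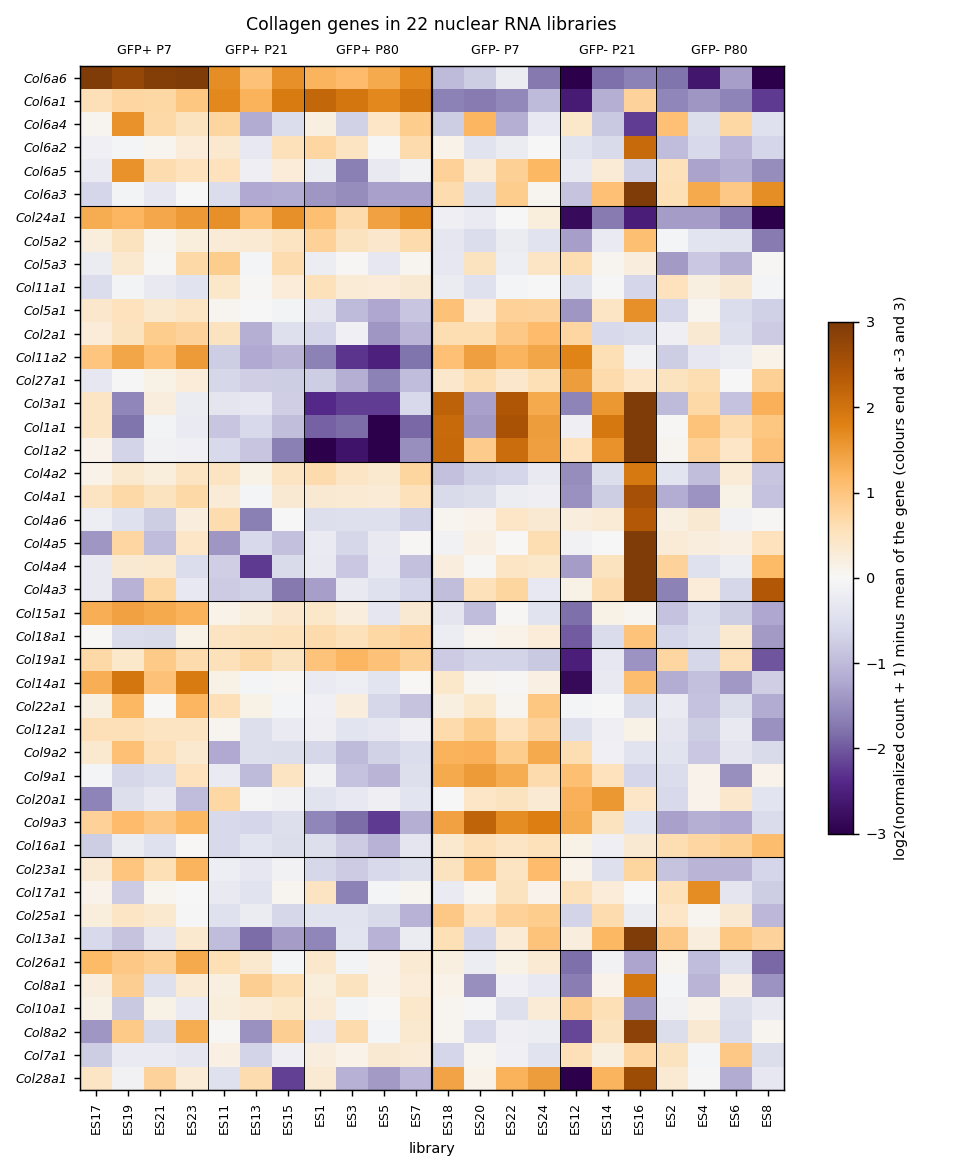
Rows are the 44 collagen genes, ordered by class, and columns are the 22 libraries by population and age; colour is log2(normalized count + 1) minus the mean of the gene. The top rows, Col6a6 and Col6a1, were high in every GFP+ library, and ES16 stood out among GFP- libraries in the type I, III and IV genes.

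**Figure D2:**
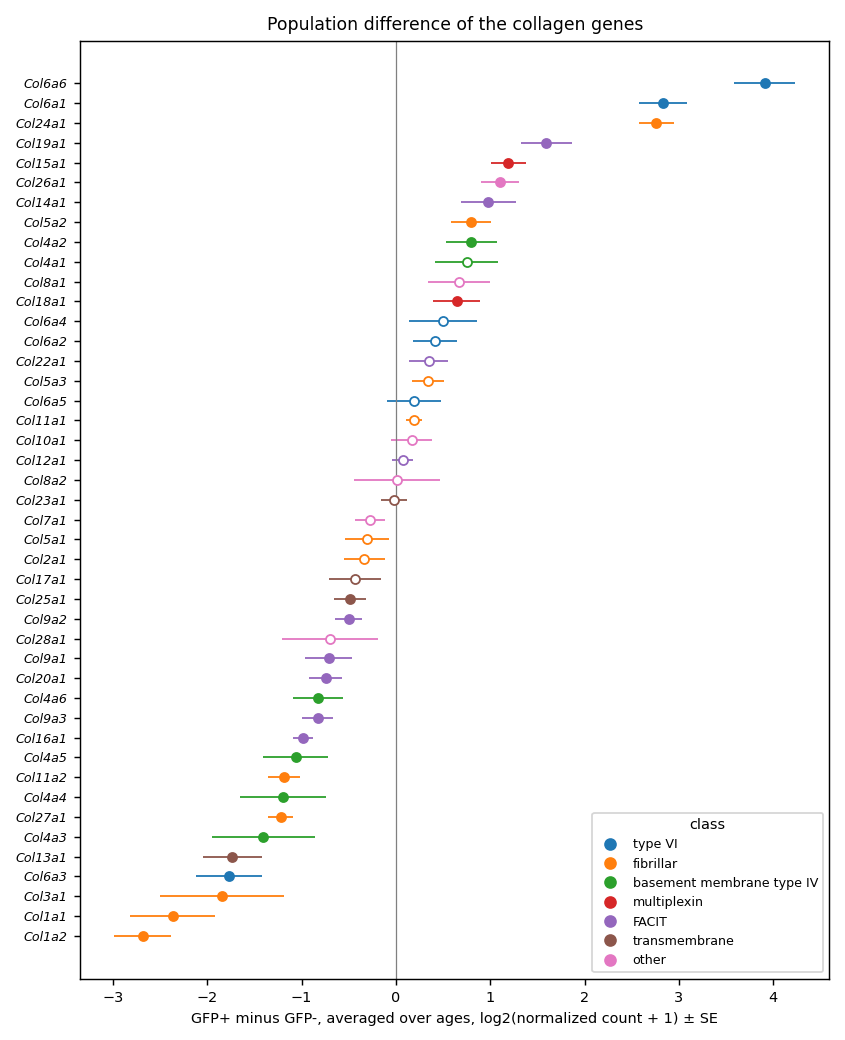
Points are the difference between GFP+ and GFP- nuclei averaged over ages, in log2(normalized count + 1), with bars of 1 SE (n = 11 libraries per population); filled points had an adjusted p under 0.05 and colour gives the class. Values ran from 3.91 for Col6a6 to -2.69 for Col1a2.

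Type VI held the largest difference in favour of GFP+ nuclei, in Col6a6, beside a higher Col6a1 and a lower Col6a3. Col6a1 ranked second in limma. On recovered reads it was below the fibrillar gene Col24a1, by edgeR (2.63 against 2.73) and by DESeq2 (2.62 against 2.72). Col6a1 and Col6a2 encode the chains that pair with a further chain, which Col6a3 encodes in most tissues and for which Col6a4, Col6a5 and Col6a6 encode alternatives. Col6a6 had normalized counts in GFP+ nuclei of 775, 639, 749 and 773 at P7, 303, 198 and 299 at P21, and 229, 211, 245 and 318 at P80. In GFP- nuclei they were 48.1, 56.5, 82.8 and 28.3 at P7, 2.97, 26.6 and 30.6 at P21, and 27.4, 14.5, 38.1 and 5.43 at P80. The lowest GFP+ library, at 198, was above the highest GFP- library, at 82.8, and GFP+ levels were highest at P7. The difference was 3.91 ± 0.33 (adjusted p = 4.66e-09), or 3.84 ± 0.54 at P7, 4.12 ± 0.62 at P21 and 3.77 ± 0.54 at P80. Without ES8, ES12 and ES16, which had low pan-neuronal sums, it was 3.45 (adjusted p = 9.89e-10). For Col6a1, which encodes the alpha1 chain, GFP+ libraries had 1067, 1194, 1178 and 1405 at P7, 2378, 1718 and 2639 at P21, and 3225, 2796, 2377 and 2784 at P80. GFP- libraries had 231, 221, 242 and 359.9 at P7, 119, 326 and 1239 at P21, and 238, 266, 236 and 151 at P80. The populations overlapped through 1 library, ES16 at 1239; the other 10 GFP- libraries were at or below 359.9, under the lowest GFP+ library at 1067. Col6a1 was higher by 2.83 ± 0.26 (adjusted p = 2.07e-08) on the log2 scale, and by 3.12 (adjusted p = 1.62e-11) without ES16.

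Col6a2 and Col6a3, which encode its usual partners, differed in other ways. Col6a2 had means of 244 ± 58.7 in GFP+ and 216 ± 223 in GFP- nuclei (SD, n = 11 each), and its difference of 0.42 ± 0.23 (adjusted p = 0.149) did not pass. Without ES16, at 879.5 the highest library, it was 0.71 (adjusted p = 3.52e-05) and was called higher. Col6a3 was lower at -1.77 ± 0.35 (adjusted p = 0.000245), with GFP+ libraries between 20.3 and 58.6 and GFP- libraries between 31.7 and 761, the latter in ES16. Per kilobase of exon, the level of Col6a1 was 8.24 to 17.8 times that of Col6a2 in GFP+ libraries (median 13) and 1.14 to 3.53 times in GFP- libraries (median 2.15). The ratio ranges did not overlap. The ratio of Col6a1 to Col6a3 was 56.5 to 391 in GFP+ and 2.13 to 15.3 in GFP- libraries, and that of Col6a6 to Col6a3 was 8.78 to 24.5 against 0.0342 to 1.59. ES16 had a Col6a1 to Col6a2 ratio of 2.06, within the range of the other GFP- libraries, although its level of both genes was high. Col6a4 (0.50 ± 0.36) and Col6a5 (0.20 ± 0.28) did not pass, with means of 19.7 and 14.5 over all libraries. Col6a6, Col6a5 and Col6a4 follow each other on the minus strand of chromosome 9, with 27917 and 28810 bases between neighbours, and Col6a2 and Col6a1 are neighbours on chromosome 10.

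Beyond type VI, Col24a1, Col19a1, Col15a1 and Col26a1 were higher in GFP+ nuclei by more than 1 on the log2 scale. Col24a1 encodes a fibrillar chain known from developing bone. Its GFP+ libraries had 1505, 1393, 1550.5 and 1744 at P7, 1864, 1278 and 1853 at P21, and 1281, 958, 1629.9 and 1935 at P80. Its GFP- libraries had 541, 506, 596 and 711 at P7, 84.2, 183 and 102 at P21, and 236, 234, 188 and 71.4 at P80. The GFP+ libraries of the 3 ages overlapped, and GFP- levels were highest at P7. The difference was 2.76 ± 0.18 (adjusted p = 1.9e-10), with 1.40 ± 0.30 at P7, 3.80 ± 0.35 at P21 and 3.08 ± 0.30 at P80. Col19a1 encodes a FACIT-like collagen known from interneurons of the mouse brain. GFP+ libraries had 258, 211, 304 and 255 at P7, 232, 257 and 226 at P21, and 324, 370.5, 328 and 284 at P80. GFP- libraries had 91.5, 100, 99.6 and 90.7 at P7, 26.7, 128 and 58 at P21, and 264, 103, 238 and 38 at P80. The populations did not overlap at any age, and at P80 the GFP- libraries ES2 and ES6, at 264 and 238, came closest to the lowest GFP+ library, at 284. Col19a1 was higher by 1.59 ± 0.27 (adjusted p = 4.93e-05), and by 1.03 (adjusted p = 5.11e-06) without ES8, ES12 and ES16.

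Col15a1 encodes a multiplexin of basement membrane zones. It had 619, 679.9, 641 and 601 at P7, 276, 296 and 331 at P21, and 336, 293, 198 and 316 at P80 in GFP+ nuclei. Col15a1 in GFP- nuclei was at 195, 127, 258 and 188 at P7, 70.3, 278 and 264 at P21, and 133, 172, 147 and 107 at P80. The GFP+ libraries of P7 were above those of later ages and above all GFP- libraries. Its difference was 1.19 ± 0.19 (adjusted p = 1.83e-05), and in ES16, where other vessel collagens were high, it stood at 264, below ES14 at 278. Col26a1, whose product is known from testis and ovary, had 211, 180.3, 167 and 241 at P7, 143, 120.5 and 90.2 at P21, and 122, 88.9, 101 and 117 at P80 in GFP+ nuclei. Col26a1 in GFP- nuclei was at 108, 80.7, 104 and 117 at P7, 25.8, 87.2 and 38.3 at P21, and 99.2, 47, 68.2 and 24.4 at P80. All GFP+ libraries were above all GFP- libraries at P7 and at P21, and they overlapped at P80. It was higher by 1.10 ± 0.20 (adjusted p = 0.000125), and by 0.66 (adjusted p = 0.000331) without ES8, ES12 and ES16.

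**Figure D3:**
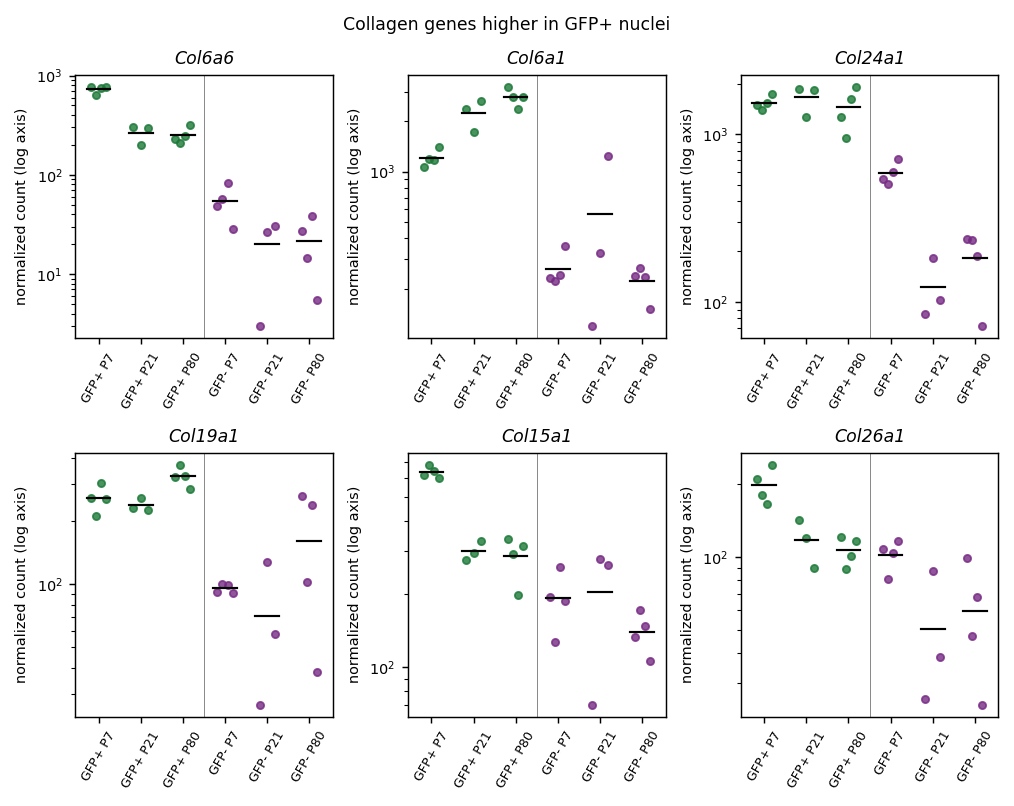
Points are normalized counts of single libraries on log axes, by population and age, for Col6a6, Col6a1, Col24a1, Col19a1, Col15a1 and Col26a1, with lines at the group means. In Col6a6 the GFP+ libraries ran from 198 to 775 and the GFP- libraries from 2.97 to 82.8, and the high GFP- point of Col6a1 is ES16.

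Col14a1, Col5a2, Col4a2 and Col18a1 were also higher in GFP+ nuclei, by less than 1 on the log2 scale, and in each of them ES16 was the highest GFP- library. Col14a1, a FACIT gene, had 312, 493, 261 and 472 at P7, 141, 120.5 and 129 at P21, and 106, 111, 97 and 128 at P80 in GFP+ nuclei. Col14a1 in GFP- nuclei was at 167, 132, 130.1 and 142 at P7, 16.8, 105 and 275 at P21, and 56.2, 66, 47.1 and 75.1 at P80. The P7 GFP+ libraries were above all others but ES16, at 275, which lay within their range. The difference of Col14a1 was 0.98 ± 0.29 (adjusted p = 0.00876). Col5a2, a chain of the type V collagen that starts fibrils, had 599, 717, 533 and 601 at P7, 621, 625 and 706 at P21, and 876, 710, 654 and 802 at P80 in GFP+ nuclei. Col5a2 in GFP- nuclei was at 395, 350.1, 433 and 379 at P7, 202, 422 and 1076 at P21, and 487, 386, 377 and 154 at P80. ES16, at 1076, was above all GFP+ libraries and every other GFP- library was below all of them. Col5a2 was higher by 0.80 ± 0.21 (adjusted p = 0.00383), and by 1.01 (adjusted p = 5.39e-05) without ES16. Col18a1 encodes the multiplexin that is the source of endostatin. GFP+ libraries had 160.2, 109.5, 107 and 176 at P7, 222, 226 and 232 at P21, and 254, 234, 259 and 276 at P80. GFP- libraries had 139, 167, 174 and 192 at P7, 39.6, 108 and 321 at P21, and 101, 113, 206 and 60.6 at P80. The populations overlapped at P7, did not overlap at P80, and at P21 only ES16, at 321, was above the GFP+ libraries. Its difference of 0.64 ± 0.25 (adjusted p = 0.0381) was 0.90 (adjusted p = 0.000475) without ES16. It did not pass without any 1 of ES17, ES23, ES11, ES13, ES15, ES1, ES5, ES7, ES18, ES20, ES12, ES14, ES2 and ES8, at 0.40 to 0.65 (adjusted p = 0.0502 to 0.0937), nor over P7 and P80 only, at 0.46 (adjusted p = 0.24). It was also not called by edgeR (0.46, adjusted p = 0.126) or DESeq2 (0.45, adjusted p = 0.114), each on recovered reads.

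GFP- nuclei hold neurons and other cells, so the populations were also compared relative to the 12 pan-neuronal markers of the same library. On that scale the median of all tested genes was -0.79, 3.61% of them were higher and 74.2% lower. Of the collagen genes 6 were higher and 26 lower, with a median of -0.91. The 6 were Col6a6 at 3.14 ± 0.27 (adjusted p = 1.75e-09), Col6a1 at 2.06 ± 0.25 (adjusted p = 4.71e-07), Col24a1 at 2.0 ± 0.14 (adjusted p = 1.27e-10), Col19a1 at 0.83 ± 0.19 (adjusted p = 0.000408), Col15a1 at 0.42 ± 0.17 (adjusted p = 0.0295) and Col26a1 at 0.34 ± 0.15 (adjusted p = 0.0397). Of these, Col26a1 was not called without any 1 of ES17, ES23, ES11, ES1, ES7, ES20, ES12, ES4 and ES8, at 0.27 to 0.33 (adjusted p = 0.0568 to 0.102), nor without ES8, ES12 and ES16, at 0.15 (adjusted p = 0.339). Col15a1 was not called without any 1 of ES15, ES20, ES12 and ES2, at 0.27 to 0.39 (adjusted p = 0.0502 to 0.101). The other 4 genes were called without any 1 library. Col14a1 (0.22 ± 0.30), Col5a2 (0.03 ± 0.19), Col4a2 (0.03 ± 0.27) and Col18a1 (-0.12 ± 0.23), which had been higher before, did not pass on this scale.

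The chains of types I and III, known from fibroblasts of the meninges and vessels, were lower in GFP+ nuclei. Col1a1 and Col1a2 encode the chains of type I collagen and Col3a1 that of type III. Col1a2 had 169, 97.1, 145 and 142 at P7, 102, 85.4 and 49.1 at P21, and 18.7, 23.6, 12.4 and 54.8 at P80 in GFP+ nuclei. Col1a2 in GFP- nuclei was at 696, 294, 659 and 429.8 at P7, 225, 474 and 1867 at P21, and 164, 274, 211 and 325 at P80. GFP+ libraries were below GFP- libraries at each age, and the lowest GFP- library, at 164, was under 1 GFP+ library, at 169. The difference was -2.69 ± 0.30 (adjusted p = 3.24e-07), and -2.41 (adjusted p = 2.13e-07) without ES16. Col1a1 had 119, 24.7, 82.1 and 73.4 at P7, 47.7, 57 and 44.1 at P21, and 21.8, 23.6, 8.7 and 22.6 at P80 in GFP+ nuclei. Col1a1 in GFP- nuclei was at 378, 33.1, 492 and 244 at P7, 78.3, 331 and 1143 at P21, and 88.8, 177, 135 and 172 at P80. ES20, at 33.1, was the GFP- library that lay within the GFP+ range at P7. Col1a1 was lower at -2.37 ± 0.45 (adjusted p = 0.000221), and at -2.05 (adjusted p = 0.000836) without ES16.

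Col3a1 had 149, 35.4, 125 and 91.4 at P7, 82.9, 85.4 and 64.1 at P21, and 19.7, 22.5, 22.4 and 70.5 at P80 in GFP+ nuclei. Col3a1 in GFP- nuclei was at 513, 42.8, 578 and 276 at P7, 34.7, 319 and 4014 at P21, and 53.5, 174, 57.2 and 260.5 at P80. The populations overlapped at every age, and ES16, at 4014, was 18.5 times the median of the other GFP- libraries. Its difference of -1.84 ± 0.66 (adjusted p = 0.0282) was not called without either ES16 or ES8, at -1.70 to -1.26 (adjusted p = 0.0573 to 0.0594), and was -1.65 (adjusted p = 0.0293) without ES8, ES12 and ES16 together. Over P7 and P80 only it was -1.66 (adjusted p = 0.102), in a fit whose spread still took in the P21 libraries. By the authors' Wald test at single ages Col3a1 was at -1.50 at P7 (adjusted p = 0.000877). It was at -2.07 at P21 (adjusted p = 0.457) and at -1.93 at P80 (adjusted p = 2.91e-07). Of 10 collagens known from fibroblasts, a list chosen with these data known, 3 were higher and 4 lower. Of all tested genes 22.6% were higher and 25.5% lower. Col5a1 did not pass, at -0.31 ± 0.24 (adjusted p = 0.301), but was called lower without ES8, ES12 and ES16, at -0.42 (adjusted p = 0.0109). Col12a1 did not pass either, at 0.07 ± 0.11 (adjusted p = 0.643), and Col5a2, Col14a1 and Col6a1 were higher, as given above. Meningeal fibroblast markers were lower in 7 of 9 tested genes with a median of -1.71, among them Bnc2 at -2.82 ± 0.19 (adjusted p = 1.13e-10) and Slc6a13 at -2.58 ± 0.49 (adjusted p = 0.000149). Dcn, at -0.53 ± 0.54 (adjusted p = 0.444), and Crabp2, at -0.76 ± 0.39 (adjusted p = 0.119), did not pass. Mean levels of the 9 genes ran from 0.844 (Foxd1) to 41 (Dcn) in GFP+ nuclei and from 5.9 (Crabp2) to 147 (Bnc2) in GFP- nuclei. The summed level of these markers was 95.2 to 181 in GFP+ and 163 to 1625 in GFP- libraries. Schwann cell markers were lower in 4 of 4 tested genes of 5 listed, with a median of -1.85. Their summed level was 35.4 to 188 in GFP+ and 44.4 to 1538 in GFP- libraries. At P7 the sum was 1013, 44.4, 1538 and 350.5 in GFP- libraries, in code order, and 160.2, 35.4, 188 and 56.2 in GFP+ libraries. Among GFP- libraries of P7, ES20 had the lowest Schwann cell sum and the lowest level of Col1a1, Col1a2 and Col3a1. It also had the lowest meningeal fibroblast sum there, at 163 against 457 in ES18, 431 in ES22 and 341 in ES24. Its sums of astrocyte (16155), oligodendrocyte (41275) and oligodendrocyte precursor markers (11709) were the highest of that group. The part of fibroblasts and Schwann cells in the collagen differences was not tested.

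**Figure D4:**
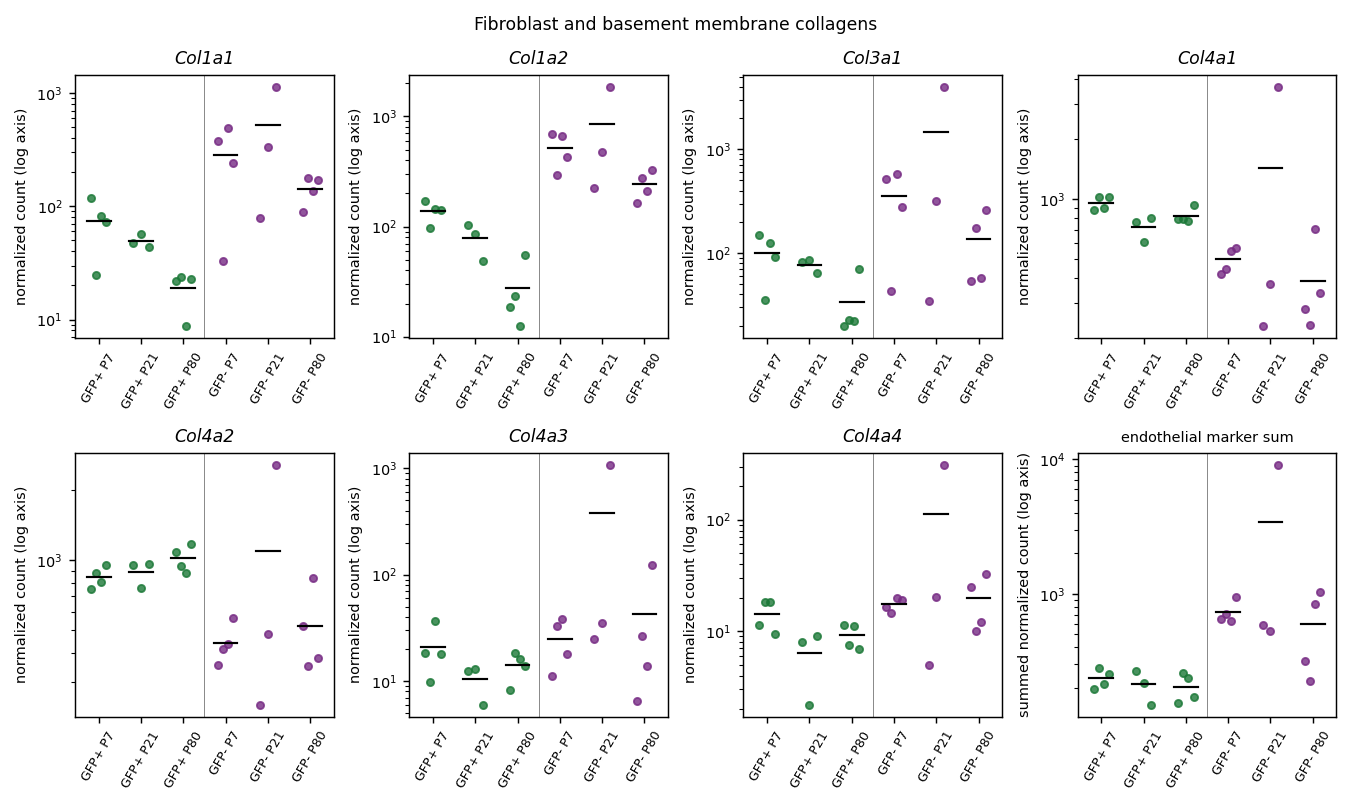
Points are normalized counts of single libraries on log axes for Col1a1, Col1a2, Col3a1, Col4a1, Col4a2, Col4a3 and Col4a4, and the summed normalized count of 10 endothelial markers, by population and age, with lines at the group means. The highest GFP- point of P21 in every panel is ES16, at 1076 for Col4a3 and 9112 for the endothelial sum.

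The 6 type IV genes split into pairs. Col4a1 and Col4a2, which encode the chains found in nearly all basement membranes, were the abundant pair, and Col4a3 to Col4a6, known from kidney, lung and smooth muscle, were low outside ES16. Col4a1 had 877, 1023, 899.7 and 1022 at P7, 767, 608 and 799 at P21, and 793, 788, 772 and 931 at P80 in GFP+ nuclei. Col4a1 in GFP- nuclei was at 421, 447, 550 and 569 at P7, 229, 373 and 3668 at P21, and 281, 232, 704 and 336 at P80. ES16 was above all GFP+ libraries, and at each age the other GFP- libraries were below all GFP+ libraries. Its difference of 0.75 ± 0.33 (adjusted p = 0.0715) was not called, and without ES16 it was 1.15 (adjusted p = 3.51e-06). Col4a2 had 752, 882, 805 and 949.7 at P7, 955, 761 and 958 at P21, and 1082, 939, 879 and 1166 at P80 in GFP+ nuclei. Col4a2 in GFP- nuclei was at 357, 415, 436 and 564 at P7, 241, 482 and 2554 at P21, and 522, 351, 838 and 379.8 at P80. The pattern was that of Col4a1, with ES16 alone above the GFP+ libraries. Col4a2 was higher by 0.80 ± 0.27 (adjusted p = 0.0197) and by 1.12 (adjusted p = 3.65e-06) without ES16, but was not called by edgeR (0.55, adjusted p = 0.109) or DESeq2 (0.54, adjusted p = 0.112). Per kilobase of exon the ratio of Col4a1 to Col4a2 was 0.714 to 1.14 in GFP+ and 0.524 to 1.4 in GFP- libraries. Relative to the pan-neuronal markers neither gene differed past the threshold (-0.02 ± 0.34 and 0.03 ± 0.27). Endothelial markers were lower in 9 of 10 genes with a median of -2.22, and mural markers in 8 of 10 with a median of -1.50. Of all tested genes 22.6% were higher and 25.5% lower. Kdr was at -3.16 ± 0.56 (adjusted p = 8.26e-05) and Pdgfrb at -2.98 ± 0.24 (adjusted p = 1.17e-09), and Tek, at -0.45 ± 0.35 (adjusted p = 0.305), did not pass. Mean levels of the 10 endothelial markers ran from 5.65 (Cldn5) to 66.5 (Tek) in GFP+ nuclei and from 67.8 (Tie1) to 272 (Cdh5) in GFP- nuclei. Of 4 collagens known from vessel basement membranes, Col15a1, Col18a1 and Col4a2 were higher and Col4a1 did not pass, while endothelial sums were 149 to 278 in GFP+ and 223 to 9112 in GFP- libraries. The part of vessel cells in these values was not tested.

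Col4a3 had 18.2, 9.88, 36.8 and 18 at P7, 12.5, 13.1 and 6.01 at P21, and 8.31, 18.2, 16.2 and 13.9 at P80 in GFP+ nuclei. Col4a3 in GFP- nuclei was at 11.1, 33.1, 38.4 and 17.9 at P7, 24.8, 35.4 and 1076 at P21, and 6.53, 26.8, 14 and 122 at P80. The populations overlapped at P7 and P80, and at P21 the GFP+ libraries were below the GFP- libraries. Col4a4 had 11.4, 18.1, 18.4 and 9.37 at P7, 7.95, 2.19 and 9.02 at P21, and 11.4, 7.5, 11.2 and 6.96 at P80 in GFP+ nuclei. Col4a4 in GFP- nuclei was at 16.6, 14.5, 19.7 and 18.9 at P7, 4.95, 20.2 and 311 at P21, and 24.8, 10.1, 12 and 32.6 at P80. ES16 was again the highest, 17.5 times the median of the other GFP- libraries, where Col4a3 was at 41.7 times. Col4a3 was lower at -1.41 ± 0.54 (adjusted p = 0.0383), but was not called without any 1 of ES19, ES15, ES1, ES7, ES20, ES22, ES16, ES4 and ES8, at -1.41 to -0.83 (adjusted p = 0.0504 to 0.0833). For Col4a3 no DESeq2 value was available for this difference. Col4a4 was lower at -1.19 ± 0.45 (adjusted p = 0.0344), but was not called without any 1 of ES17, ES23, ES13, ES3, ES7, ES16, ES2 and ES8, at -1.17 to -0.66 (adjusted p = 0.0502 to 0.0835). Col4a5 (-1.06 ± 0.35 (adjusted p = 0.0151)) and Col4a6 (-0.83 ± 0.27 (adjusted p = 0.0129)) were lower too, with ES16 at 544 and 104 and the other GFP- libraries at most at 72.7 and 26.6. Col4a5 was -0.67 (adjusted p = 0.0154) without ES16, and Col4a6 was not called without ES8, ES12 and ES16, at -0.61 (adjusted p = 0.0651). An average over P7 and P80 only leaves out the levels of P21, but its libraries still entered the shared spread. On that average none of the 4 genes passed: Col4a3 was at -0.52 (adjusted p = 0.572), Col4a4 at -0.61 (adjusted p = 0.406), Col4a5 at -0.53 (adjusted p = 0.332) and Col4a6 at -0.59 (adjusted p = 0.147). Without ES16 alone, Col4a6 was called as Col4a5 was, at -0.59 (adjusted p = 0.0323). About 3.2% of the exonic bases of Col4a3 are shared with C430014B12Rik on the other strand, and the sources used here do not say if reads were counted by strand.

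Each pair of type IV genes lies head to head in the genome. In GENCODE M21, Col4a1 and Col4a2 overlap by 22 bases on chromosome 8, Col4a6 and Col4a5 have 1308 bases between them on chromosome X, and Col4a4 and Col4a3 have 71 bases between them on chromosome 1. The last of these is printed, from the RefSeq promoter table (GRCm38.p6, chr1:82586850-82586920, plus strand), because both of its genes were high in ES16. No letters are in capitals, since none of the 3 motifs searched was found in it.
Col4a4-Col4a3: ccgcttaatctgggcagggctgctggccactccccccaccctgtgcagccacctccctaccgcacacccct
Each motif was searched on both strands. Of all 32851 promoters in that table, 4.41% hold the TATA box letters TATAAA in the last 71 bases before the start. The letters CCAAT are held by 13.3% of them, and the letters GGGCGG by 20.7%. The table has promoters for 35 of the 44 collagen genes.

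The remaining genes that were lower in GFP+ nuclei include collagens known from cartilage and from cell membranes. Means of normalized counts are given as GFP+ against GFP- nuclei, with SD and n = 11 each. Col27a1, a fibrillar gene, was lower at -1.22 ± 0.13 (adjusted p = 7.91e-08), with means of 172 ± 67.8 against 379.7 ± 114. GFP+ libraries lay below GFP- libraries at every age. The FACIT gene Col16a1 was lower at -0.98 ± 0.10 (adjusted p = 7.69e-08), with means of 149.9 ± 30.6 against 306 ± 71, and its populations did not overlap at any age either. Col13a1, a transmembrane collagen of the neuromuscular junction, was lower at -1.73 ± 0.31 (adjusted p = 8.49e-05), with means of 8.6 ± 4.44 against 34.7 ± 39.6; ES16 was highest at 152 and without it the difference was -1.44 (adjusted p = 7.7e-05). Over P7 and P80 only it was -1.12 (adjusted p = 0.0193). Col25a1, a transmembrane collagen of neurons, was lower at -0.49 ± 0.17 (adjusted p = 0.0197) and was not called without ES14, at -0.36 (adjusted p = 0.052). It was -0.84 (adjusted p = 2.49e-07) without ES8, ES12 and ES16. The 3 type IX genes, which encode a FACIT of cartilage fibrils, were all lower: Col9a3 at -0.83 ± 0.17 (adjusted p = 0.000286), Col9a1 at -0.71 ± 0.25 (adjusted p = 0.0238) and Col9a2 at -0.50 ± 0.14 (adjusted p = 0.00558). Col9a1 was not called without either ES13 or ES12, at -0.59 to -0.58 (adjusted p = 0.0644 to 0.0664), and Col9a2 was not called over P7 and P80 only, at -0.38 (adjusted p = 0.0783). Of Col9a3, 7.7% of the exonic bases are shared with Tcfl5 on the other strand. Col20a1 was lower at -0.74 ± 0.18 (adjusted p = 0.00132) and Col11a2 at -1.19 ± 0.17 (adjusted p = 6.15e-06). Oligodendrocyte, oligodendrocyte precursor, astrocyte and microglia markers were lower in GFP+ nuclei in 8 of 8, 7 of 7, 8 of 8 and 8 of 8 genes. Of all tested genes 25.5% were lower. The part of these cells in the collagen differences was not tested.

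The other 17 genes did not pass in this comparison. Their differences ran from -0.70 (Col28a1) to 0.75 (Col4a1), and their means over all libraries from 10.7 (Col8a2) to 1712 (Col11a1). Col11a1, a fibrillar gene with the highest mean count of the 44, had 1149.6, 1577, 1380.1 and 1262 at P7, 2213, 1696 and 2017 at P21, and 2422, 2024, 1998 and 2089.6 at P80 in GFP+ nuclei. Col11a1 in GFP- nuclei was at 1415, 1223, 1594 and 1646 at P7, 1214, 1629.9 and 1068 at P21, and 2404, 1910.5, 2123 and 1601 at P80. Its populations overlapped at P7 and P80 and not at P21, and its averaged difference had an adjusted p of 0.0745. The 95% interval of the difference was 0.02 to 0.37. Intervals here are normal approximations from the SE and are not adjusted for the number of genes tested. They can thus leave out 0 in a gene that did not pass. For Col12a1 the interval was -0.15 to 0.30, and for Col23a1 -0.29 to 0.25. It was 0.10 to 1.40 for Col4a1. For Col28a1 it was -1.70 to 0.30 and for Col8a2 -0.89 to 0.91. Differences near 0 changed sign under some settings. With ES8, ES12 and ES16 left out, Col12a1 was at -0.01 in place of 0.07, Col6a5 at -0.05 in place of 0.20, Col10a1 at -0.04 in place of 0.17 and Col23a1 at 0.21 in place of -0.02, and over P7 and P80 only Col11a1 was at -0.02 in place of 0.19. Without the 3 libraries Col5a3, a chain of type V collagen, was called higher at 0.51 (adjusted p = 0.0123) and Col28a1 lower at -1.03 (adjusted p = 0.0342). Col8a1 was at 0.67 ± 0.33 (adjusted p = 0.0985), with ES16 at 133.5 and the other GFP- libraries at most at 38.1, and without ES16 it was called higher at 0.97 (adjusted p = 0.00399). Col7a1 (anchoring fibrils of skin), Col10a1 (growth plate cartilage), Col17a1 (hemidesmosomes) and the type VIII genes Col8a1 and Col8a2 were among these 17.

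Levels of different genes were compared per kilobase of exon (normalized count per kilobase, mean and SD over 11 libraries). In GFP+ nuclei Col6a1 ranked 1 of 44 at 505 ± 189, followed by Col11a1 at 235 ± 54.2 and Col24a1 at 216 ± 42.1. In GFP- nuclei Col11a1 ranked 1 at 211 ± 52.6 and Col6a1 ranked 8 at 80.5 ± 75.4. The level of Col6a6 was 47 ± 26.8 in GFP+ nuclei, rank 12, and 3.58 ± 2.53 in GFP- nuclei, rank 40. The gene with the largest fold difference was not the one with the highest level. Exon lengths came from GENCODE M21, while the sources used here do not give the annotation behind the deposited counts. The ranks, and the ratios between genes given above, assume that reads were counted over these exons.

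At single ages the counts were smaller. At P7, 5 collagen genes were higher and 4 lower, where 7.06% and 10.1% of all tested genes were. The 5 were Col6a6, Col6a1, Col15a1, Col19a1 and Col24a1, and the 4 were Col1a2, Col16a1, Col20a1 and Col9a1. At P21, 6 were higher and 14 lower, where 14.7% and 18.3% of all tested genes were, and without ES8, ES12 and ES16 the 14 became 8. At P80, 9 were higher and 7 lower, where 12.6% and 15.4% of all tested genes were. The authors' single-age Wald tests called 10 collagen genes higher and 10 lower at P7. They called 4 higher and 8 lower at P21, and 12 higher and 8 lower at P80. The shares of all genes in those tests are not given here. Leaving out ES8, ES12 and ES16 changed the calls at P7 although no P7 library was left out, since the 6 groups share 1 estimate of the spread. Col6a6, Col6a1, Col24a1 and Col19a1 were called higher at all 3 ages, and Col1a2 and Col16a1 lower. At P7 Col19a1 was not called without any 1 of ES17, ES21, ES23, ES18, ES20, ES22 and ES24, at 1.32 to 1.43 (adjusted p = 0.0561 to 0.076), and Col9a1 was not without any 1 of ES19, ES21, ES18, ES20 and ES22, at -1.34 to -1.23 (adjusted p = 0.0556 to 0.0749). At P80, Col19a1 was not called without any 1 of ES3, ES4 and ES8, at 0.80 to 1.30 (adjusted p = 0.0584 to 0.116), or by edgeR, at 1.05 (adjusted p = 0.0641), nor at P21 without ES8, ES12 and ES16, at 0.89 (adjusted p = 0.0692). At P21, Col16a1 was not called without any 1 of ES11, ES15, ES12 and ES16, at -0.61 to -0.50 (adjusted p = 0.0508 to 0.0807). Col6a2, a partner of Col6a1, was called at P80 alone, at 1.26 ± 0.38 (adjusted p = 0.0163); at P7 it was at 0.17 ± 0.38 and at P21 at -0.18 ± 0.44. In 4 collagen genes all libraries of GFP+ nuclei were higher at each age, and in 3 all were lower, where 6.62% and 8.38% of all tested genes were. The difference between populations itself changed with age in 2 collagen genes, Col24a1 (adjusted p = 0.0232, interaction with 2 degrees of freedom) and Col11a2 (adjusted p = 0.039), where 0.951% of all tested genes were called. Col24a1 differed least at P7, and Col11a2, whose differences ran -0.04 ± 0.28 at P7, -1.77 ± 0.32 at P21 and -1.75 ± 0.28 at P80, differed at the later ages. Both calls were lost under some settings: the first was lost without any 1 of ES17, ES19, ES21, ES18 and ES24 (adjusted p = 0.0518 to 0.0576), and the second without any 1 of ES17, ES19, ES21, ES23, ES13, ES15, ES3, ES5, ES18, ES20, ES22, ES24, ES4 and ES8 (adjusted p = 0.0562 to 0.107).

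Within GFP+ nuclei, collagen genes fell with age more often than they rose. From P7 to P80, 12 of 44 were lower and 1 higher, where 5.91% of all tested genes were lower and 3.48% higher. Their median change was -0.49, and that of all tested genes -0.03. In a fit of the 11 GFP+ libraries alone, chosen after seeing the data because GFP- libraries spread widely, 18 were lower and 6 higher, where 13% and 9.94% of all tested genes were. From P7 to P21, 4 genes were lower and 0 higher in the fit of all libraries, where 1.46% and 0.865% of all tested genes were, and 12 were lower and 4 higher in GFP+ libraries alone, where 5.62% and 5.26% were. In the fit of all libraries 2 were higher at an unadjusted p under 0.05, edgeR called 0 and DESeq2 1. From P21 to P80, 0 genes passed in limma, where 0.242% of all tested genes were lower and 0% higher; 3 were lower at an unadjusted p under 0.05, and edgeR and DESeq2 called 0. In GFP+ libraries alone 3 were lower, where 0.962% of all tested genes were: Col9a3, Col11a2 and Col5a1. In 16 collagen genes every P80 library of GFP+ nuclei was below every P7 library, and in 4 every one was above, patterns of 14.2% and 10.8% of all tested genes.

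The lowest changes belonged to genes of cartilage fibrils, Col11a2 and Col9a3. Col11a2, a chain of the type XI collagen of cartilage fibrils, had 943, 1231, 1006 and 1339 at P7, 276, 203 and 226 at P21, and 151, 95.3, 83.3 and 138 at P80 in GFP+ nuclei. Col11a2 in GFP- nuclei was at 984, 1292, 1109.9 and 1249.8 at P7, 1596, 716 and 439.8 at P21, and 276, 376, 408 and 512 at P80. GFP+ levels fell from P7 to P21 and were lowest at P80, with no overlap between the 3 ages. The change from P7 to P80 was -3.29 ± 0.28 (adjusted p = 1.61e-07) in GFP+ and -1.58 ± 0.28 (adjusted p = 0.000434) in GFP- nuclei. Col9a3 had 337, 426, 373 and 436 at P7, 126, 122 and 137 at P21, and 63.4, 52.5, 39.8 and 87 at P80 in GFP+ nuclei. Col9a3 in GFP- nuclei was at 525, 895, 610.2 and 692 at P7, 482, 274 and 147 at P21, and 77, 87.2, 83.2 and 131 at P80. Its ages did not overlap in GFP+ nuclei either. Col9a3 changed by -2.72 ± 0.27 (adjusted p = 1.42e-06) in GFP+ nuclei, and by -2.84 ± 0.27 (adjusted p = 7.03e-07) in GFP- nuclei. Col9a2 had 79.5, 128, 91.9 and 78.9 at P7, 26.1, 43.8 and 43.1 at P21, and 39.5, 30.0, 37.3 and 41.8 at P80 in GFP+ nuclei. Col9a2 in GFP- nuclei was at 146, 148, 113 and 158 at P7, 94.1, 55.6 and 45.9 at P21, and 45.7, 33.6, 47.1 and 40.7 at P80. The P21 and P80 libraries of GFP+ nuclei overlapped and all lay below P7. Its change was -1.31 ± 0.23 (adjusted p = 0.000775) in GFP+ and -1.74 ± 0.23 (adjusted p = 2e-05) in GFP- nuclei. Col2a1, the chain of cartilage type II collagen, was low, with 42, 50.2, 65 and 60.9 at P7, 49.9, 15.3 and 25.1 at P21, and 21.8, 32.1, 12.4 and 16.5 at P80 in GFP+ nuclei. Col2a1 in GFP- nuclei was at 54.5, 54, 68 and 77.5 at P7, 58.5, 22.8 and 24.1 at P21, and 31.3, 44.7, 25.1 and 19.9 at P80. Every P80 library of GFP+ nuclei was below the P7 libraries. It changed by -1.42 ± 0.36 (adjusted p = 0.0144) in GFP+ nuclei and was not called without ES5, at -1.21 (adjusted p = 0.0658).

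Astrocyte, oligodendrocyte and oligodendrocyte precursor markers also fell in GFP+ nuclei from P7 to P80, in 7 of 8, 6 of 8 and 7 of 7 genes, with medians of -2.29, -1.79 and -2.87, where 5.91% of all tested genes were lower. Fibroblast markers fell in 2 of 9, with a median of -0.36. The part of these cells in the collagen changes was not tested. Col1a2, given above, changed by -2.48 ± 0.49 (adjusted p = 0.00269) in GFP+ nuclei. Col1a1 changed by -1.80 ± 0.74 (adjusted p = 0.146) and did not pass, but did in GFP+ libraries alone, at -1.80 ± 0.43 (adjusted p = 0.00985). Col14a1 changed by -1.75 ± 0.48 (adjusted p = 0.0249) and was not called without any 1 of ES19, ES23, ES1, ES3 and ES5, at -1.75 to -1.61 (adjusted p = 0.0541 to 0.0748); in GFP+ libraries alone it was -1.75 ± 0.17 (adjusted p = 5.8e-07). Col23a1, a transmembrane collagen, had 169, 271, 204 and 319 at P7, 120.3, 108 and 126 at P21, and 87.3, 78.2, 88.3 and 96.6 at P80 in GFP+ nuclei. Col23a1 in GFP- nuclei was at 193, 276, 189 and 298 at P7, 148, 98.6 and 231 at P21, and 73.1, 63.8, 64.2 and 85.9 at P80. Both populations were lowest at P80. It changed by -1.41 ± 0.23 (adjusted p = 0.000255) in GFP+ nuclei and by -1.70 ± 0.23 (adjusted p = 1.72e-05) in GFP- nuclei. From P7 to P21 it was lower in GFP+ nuclei at -0.98 ± 0.24 (adjusted p = 0.0333) but was not called without any 1 of ES19, ES21, ES23, ES11, ES13 and ES15, at -1.04 to -0.83 (adjusted p = 0.0506 to 0.137). Col15a1 changed by -1.18 ± 0.31 (adjusted p = 0.017) and was not called without ES5, at -1.01 (adjusted p = 0.0739).

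Col27a1 had 194, 239, 268 and 291 at P7, 159, 146 and 143 at P21, and 142, 110.3, 78.3 and 124 at P80 in GFP+ nuclei. Col27a1 in GFP- nuclei was at 319, 375, 317 and 366 at P7, 689, 389.5 and 330.4 at P21, and 346, 371, 239.6 and 433 at P80. It fell in GFP+ nuclei while the GFP- means of P7 and P80 were close, at 344 and 348. The change was -1.14 ± 0.21 (adjusted p = 0.00123) in GFP+ and -0.01 ± 0.21 (adjusted p = 0.973) in GFP- nuclei, and the interaction with population, tested over the 3 ages, did not pass. Col12a1 had 788, 788, 737 and 741 at P7, 552, 380 and 447 at P21, and 476, 407, 423 and 474 at P80 in GFP+ nuclei. Col12a1 in GFP- nuclei was at 839, 973, 767 and 916 at P7, 387, 473 and 586 at P21, and 407, 313, 437 and 189.9 at P80. It fell in both populations, at -0.78 ± 0.19 (adjusted p = 0.01) in GFP+ and -1.44 ± 0.19 (adjusted p = 1.61e-05) in GFP- nuclei. Col5a1, a chain of type V collagen, had 156, 173, 153 and 163 at P7, 126, 118 and 111 at P21, and 91.4, 58.9, 49.7 and 65.3 at P80 in GFP+ nuclei. Col5a1 in GFP- nuclei was at 244, 143, 208 and 205 at P7, 43.6, 164 and 369 at P21, and 75.7, 124, 82.2 and 71.4 at P80. Its change in GFP+ nuclei, -1.30 ± 0.39 (adjusted p = 0.0367), was not called without any 1 of ES17, ES19, ES21, ES23, ES3, ES5 and ES7, at -1.33 to -1.18 (adjusted p = 0.0664 to 0.115); in GFP+ libraries alone it was -1.30 ± 0.16 (adjusted p = 2.18e-06). Col25a1 had 232, 269, 250 and 191 at P7, 144, 166 and 127 at P21, and 145, 146, 130.5 and 90.5 at P80 in GFP+ nuclei. Col25a1 in GFP- nuclei was at 377, 283, 341 and 359.9 at P7, 122, 306 and 166 at P21, and 265, 205, 249 and 95.9 at P80. Every P80 library of GFP+ nuclei was below the P7 libraries. It changed by -0.89 ± 0.27 (adjusted p = 0.0438), but was not called without any 1 of ES17, ES19, ES21, ES23, ES11, ES13, ES15, ES1, ES3, ES5, ES7, ES18, ES22, ES24 and ES4, at -0.98 to -0.73 (adjusted p = 0.0512 to 0.144), nor by edgeR (-0.85, adjusted p = 0.0592); in GFP+ libraries alone it was -0.89 ± 0.15 (adjusted p = 0.000142).

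The collagen called higher at P80 than at P7 in GFP+ nuclei was Col11a1, at 0.67 ± 0.14 (adjusted p = 0.0042). Its P80 libraries of GFP+ nuclei were all above those of P7. Col11a1 was also the gene called higher over these ages in GFP- nuclei. That call was lost without any 1 of ES18, ES20, ES2, ES4 and ES6, at 0.35 to 0.46 (adjusted p = 0.0595 to 0.133). Of the genes that were higher in GFP+ nuclei, Col6a6 and Col6a1 went opposite ways. Col6a6 changed by -1.56 ± 0.54 (adjusted p = 0.0734) and Col6a1 by 1.21 ± 0.42 (adjusted p = 0.0798) in the fit of all libraries, in which neither passed. In GFP+ libraries alone they were at -1.56 ± 0.14 (adjusted p = 5.41e-07) and 1.21 ± 0.14 (adjusted p = 7.14e-05). No library of P80 overlapped with P7 in either gene. Col19a1 (0.35 ± 0.11 (adjusted p = 0.0267)) and Col18a1 (0.92 ± 0.14 (adjusted p = 3.79e-05)) rose in GFP+ libraries alone, and Col26a1 (-0.89 ± 0.15 (adjusted p = 0.000172)) fell, while Col24a1 did not pass (-0.14 ± 0.22 (adjusted p = 0.714)). In GFP- nuclei, 13 collagen genes were lower and 1 higher from P7 to P80, where 8.77% and 7.56% of all tested genes were. In GFP- libraries alone it was 7 and 0, where 3.95% and 3.41% were. The 8 genes called lower in both populations were Col2a1, Col5a1, Col9a2, Col9a3, Col11a2, Col12a1, Col23a1 and Col25a1. The GFP- calls of Col2a1, Col5a1 and Col25a1 were each lost in some fits that left out 1 library. Col24a1 fell in GFP- nuclei, at -1.81 ± 0.30 (adjusted p = 0.000288). From P7 to P21, 5 genes were lower and 0 higher in GFP- nuclei, where 5.07% and 5.03% of all tested genes were, with 4 higher at an unadjusted p under 0.05. There edgeR called 4 lower and 5 higher, and DESeq2 7 lower and 6 higher. In GFP- libraries alone 1 was lower, where 0.387% were lower and 0.312% higher. From P21 to P80, 3 were lower and 1 higher, where 1.17% and 0.784% were. For that step edgeR called 7 lower and 2 higher, and DESeq2 11 lower and 2 higher. The shares of all tested genes called by edgeR and DESeq2 are not given here. In GFP- libraries alone 0 were called, where 0.0215% were lower and 0.00537% higher.

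**Figure D5:**
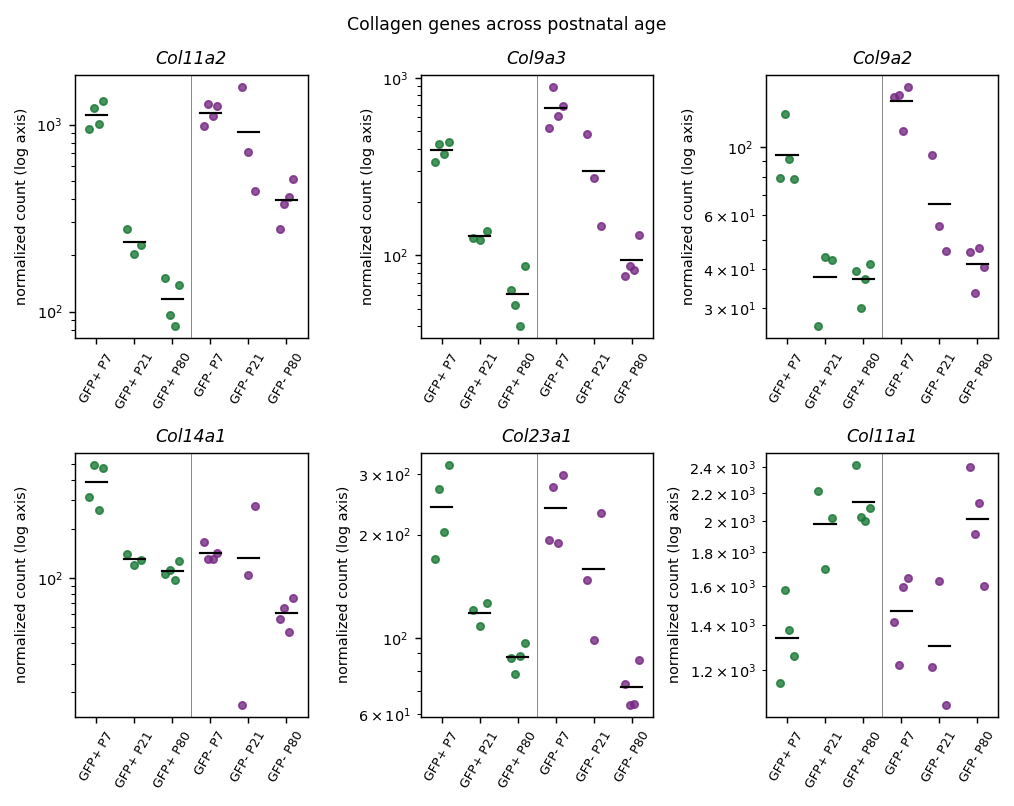
Points are normalized counts of single libraries on log axes for Col11a2, Col9a3, Col9a2, Col14a1, Col23a1 and Col11a1, by population and age, with lines at the group means. In GFP+ nuclei Col11a2 went from 943 to 1339 at P7 to 83.3 to 151 at P80, and Col11a1 from 1150 to 1577 at P7 to 1998 to 2422 at P80.

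Genes that make, bind or accompany collagens were read from lists chosen with earlier results of these data known. Of 30 genes of collagen synthesis and processing, 6 were higher and 15 lower in GFP+ nuclei averaged over ages, with a median of -0.40. Over all tested genes 22.6% were higher and 25.5% lower, with a median of -0.02. Higher were Loxl2 at 1.68 ± 0.32 (adjusted p = 0.000146), a lysyl oxidase that cross-links collagen, and Leprel1 at 1.14 ± 0.10 (adjusted p = 8.95e-09), a prolyl 3-hydroxylase. Lower were the lysyl hydroxylase gene Plod1 at -2.40 ± 0.17 (adjusted p = 2.85e-10) and the lysyl oxidase gene Loxl1 at -2.25 ± 0.46 (adjusted p = 0.000293). Loxl2 was at 173.9 in ES16 and at most at 20.8 in the other GFP- libraries, against a mean of 66.4 ± 21.6 (SD, n = 11) in GFP+ nuclei. Of 11 collagen receptors, 2 were higher and 7 lower, with a median of -0.86. The integrin subunit gene Itga11 was higher by 1.93 ± 0.16 (adjusted p = 2.99e-09) and Ptprs, a receptor phosphatase gene, by 0.90 ± 0.09 (adjusted p = 3.77e-08), while the integrin subunit gene Itga1 was at -2.66 ± 0.32 (adjusted p = 6.57e-07) and Lair1, an inhibitory receptor gene of immune cells, at -2.12 ± 0.19 (adjusted p = 8.74e-09). Of 16 basement membrane partners, 2 were higher and 8 lower, with a median of -0.98. The laminin genes Lama5 (1.16 ± 0.15 (adjusted p = 1.71e-06)) and Lama1 (0.90 ± 0.16 (adjusted p = 5.54e-05)) were higher, and Hspg2, which encodes perlecan (-2.94 ± 0.26 (adjusted p = 1.06e-08)), and the nidogen gene Nid1 (-2.64 ± 0.22 (adjusted p = 2.27e-09)) were lower. Of 13 partners of collagen fibrils 1, the elastin gene Eln at 0.94 ± 0.36 (adjusted p = 0.0374), was higher and 9 were lower, with a median of -1.59. The proteoglycan gene Bgn was lowest at -2.60 ± 0.50 (adjusted p = 0.000199).

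In the authors' deposited table, 11 collagen genes were higher and 16 lower over all ages at an adjusted p under 0.05, where 19.1% and 21.7% of the genes in that table were. The authors' deposited table gives Col6a6 a log2 fold of 3.84 ± 0.27 (SE, adjusted p = 1.85e-42) and Col1a2 one of -2.62 ± 0.29 (SE, adjusted p = 2.53e-18). Across ages in GFP+ nuclei, the authors' deposited table has 22 of 44 collagen genes at an adjusted p under 0.05, where 15.6% of its genes are. It places 12 of them in cluster A, 4 in B, 1 in C and 5 in D, letters that no header explains. In the authors' deposited table Col6a6, Col9a3 and Col15a1 are in cluster A, Col6a1, Col11a1, Col18a1 and Col19a1 in B, and Col11a2, Col27a1, Col1a2, Col2a1 and Col23a1 in D.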

How the data were processed

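RNA of sorted nuclei was sequenced in 22 samples of 6 groups. The submitters' processing notes list DESeq2, HTSeq, STAR, cutadapt and Trim Galore and give no versions, and the sources used here give no build, annotation or strand setting. The deposited per-library values are a signal: counts scaled by the authors with 1 size factor for each library, since 100% of values were whole multiples of 1 step within 0.01. The deposited log2 fold changes, their standard errors and statistics (score columns) and the deposited p-values come from the authors' Wald test, per the file headers, the across-age test being unnamed, and were used for comparison only. The labels hold no library code, so the age of a column comes from the single-age table that lists it, and GFP+ from its presence in the across-age table.

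A gene was kept when 3 or more libraries reached 10 (18614 of 21363). A limma fit (3.58.1, R 4.3.3, trend and robust) of 6 group means to log2(value + 1) was made on all 22 libraries, which share 1 spread, with Benjamini-Hochberg adjustment over all tested genes. A difference on this scale understates the change of low genes. The limma fit of the averaged population difference was checked on simulated data. Those data held no age change, no pairs of samples and no library like ES16. The other contrasts and fits were not checked in this way. Alternatives were a pseudocount of 5, no filter, limma without both options, TMM rescaling, edgeR (4.0.16) and DESeq2 (1.42.0) on recovered reads, and each library left out. Counting depth limits the genes of low counts. Replicates are separate animals; the pair of samples of 1 animal could not be joined. The collagen genes and all gene lists were chosen with earlier results of these data known. Values by library are given for genes called higher in GFP+ nuclei averaged over ages, the 3 lowest called genes, Col1a1, Col1a2, Col3a1, Col4a1 and Col4a2, and genes called in an age contrast of GFP+ nuclei or in the interaction; Col4a3 and Col4a4 were added after their values were seen. Coordinates, exon lengths and coding sequences come from GENCODE M21 and the promoter sequence from RefSeq.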

Additional observations from a re-analysis of the deposited data

Results flagged for a closer look

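In 96 groups of 4 libraries of 24 genes with values by library, 4 held a library far from the other 3 of its group by Dixon's criterion. Chance flags about 1 in 20 groups. Col1a1 was at 8.7 in the GFP+ P80 library ES5, below the others. Col3a1 was at 70.5 and Col4a1 at 931 in the GFP+ P80 library ES7, above the others. Col6a1 was at 359.9 in the GFP- P7 library ES24, above the others. Groups of 3, and with them ES16, were not examined in this way, nor were Col4a3 and Col4a4, whose values by library were added later.

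The difference between GFP+ and GFP- nuclei changed with age in Col24a1 (adjusted p = 0.0232) and Col11a2 (adjusted p = 0.039), tested by limma as the interaction of age and population. The call of Col24a1 was lost in 5 of 22 fits that left out 1 library (adjusted p = 0.0518 to 0.0576) and that of Col11a2 in 14 of 22 (adjusted p = 0.0562 to 0.107), and limma without trend and robust options called 0 of both.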

How the results depend on the processing

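The 146 results for single genes that passed were recomputed under every alternative that gives them, and of 4267 values 3926 kept their call, 341 lost it and none changed direction. Counts of collagen genes given here moved by over 1.5 times, and the cause was not tested. Shares of all tested genes are given for the main fit and the fits of 1 population alone. They are not given for the other alternatives, whose counts are thus not set against a background. By DESeq2 the count was 1 in place of 0 for GFP+ nuclei, P7 to P21 higher, 8 in place of 4 for GFP+ nuclei, P7 to P21 lower, 2 in place of 1 for GFP+ nuclei, P7 to P80 higher, 6 in place of 0 for GFP- nuclei, P7 to P21 higher, 2 in place of 1 for GFP- nuclei, P21 to P80 higher and 11 in place of 3 for GFP- nuclei, P21 to P80 lower. Over P7 and P80 only the count was 11 in place of 17 for averaged population difference lower, in a fit whose spread still took in the P21 libraries. By edgeR the count was 5 in place of 0 for GFP- nuclei, P7 to P21 higher, 2 in place of 1 for GFP- nuclei, P21 to P80 higher, 7 in place of 3 for GFP- nuclei, P21 to P80 lower and 0 in place of 1 for GFP- nuclei, P7 to P80 higher. In the libraries of 1 population alone the count was 4 in place of 0 for GFP+ nuclei, P7 to P21 higher, 12 in place of 4 for GFP+ nuclei, P7 to P21 lower, 3 in place of 0 for GFP+ nuclei, P21 to P80 lower, 6 in place of 1 for GFP+ nuclei, P7 to P80 higher, 1 in place of 5 for GFP- nuclei, P7 to P21 lower, 0 in place of 1 for GFP- nuclei, P21 to P80 higher, 0 in place of 3 for GFP- nuclei, P21 to P80 lower, 0 in place of 1 for GFP- nuclei, P7 to P80 higher and 7 in place of 13 for GFP- nuclei, P7 to P80 lower. With limma without trend and robust options the count was 0 in place of 1 for GFP- nuclei, P21 to P80 higher, 0 in place of 1 for GFP- nuclei, P7 to P80 higher and 0 in place of 2 for interaction. With log2(value + 5) the count was 2 in place of 1 for GFP- nuclei, P21 to P80 higher. With TMM rescaling the count was 2 in place of 1 for GFP- nuclei, P21 to P80 higher, 0 in place of 1 for GFP- nuclei, P7 to P80 higher and 1 in place of 2 for interaction. Without ES8, ES12 and ES16 the count was 10 in place of 5 for population difference at P7 higher, 8 in place of 4 for population difference at P7 lower, 8 in place of 14 for population difference at P21 lower, 4 in place of 0 for GFP+ nuclei, P7 to P21 higher, 11 in place of 4 for GFP+ nuclei, P7 to P21 lower, 3 in place of 0 for GFP+ nuclei, P21 to P80 lower, 5 in place of 1 for GFP+ nuclei, P7 to P80 higher, 0 in place of 1 for GFP- nuclei, P21 to P80 higher, 1 in place of 3 for GFP- nuclei, P21 to P80 lower, 3 in place of 1 for GFP- nuclei, P7 to P80 higher and 8 in place of 2 for interaction. Leaving out 1 library at a time gave 0 to 0 for GFP+ nuclei, P21 to P80 higher, 0 to 2 for GFP+ nuclei, P21 to P80 lower, 0 to 2 for GFP+ nuclei, P7 to P21 higher, 2 to 8 for GFP+ nuclei, P7 to P21 lower, 1 to 3 for GFP+ nuclei, P7 to P80 higher, 7 to 14 for GFP+ nuclei, P7 to P80 lower, 0 to 4 for GFP- nuclei, P21 to P80 higher, 1 to 8 for GFP- nuclei, P21 to P80 lower, 0 to 4 for GFP- nuclei, P7 to P21 higher, 4 to 8 for GFP- nuclei, P7 to P21 lower, 0 to 1 for GFP- nuclei, P7 to P80 higher, 8 to 16 for GFP- nuclei, P7 to P80 lower, 0 to 7 for interaction, 5 to 13 for population difference at P21 higher, 7 to 15 for population difference at P21 lower, 4 to 8 for population difference at P7 higher, 3 to 5 for population difference at P7 lower, 5 to 12 for population difference at P80 higher, 6 to 8 for population difference at P80 lower, 9 to 13 for averaged population difference higher, 14 to 18 for averaged population difference lower, 4 to 10 for difference relative to pan-neuronal markers higher and 26 to 29 for difference relative to pan-neuronal markers lower. edgeR and DESeq2 give no value relative to pan-neuronal markers. No paired analysis was possible because the columns carry no number that the labels repeat, so no fit with the animal as a block was run. Without ES8, ES12 and ES16 the lone GFP- library of P21 is assumed to vary like the other groups. TMM rescaling moved the median of all genes by under 0.1.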
